A study of Mus musculus with 4 samples.

Results

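WT1-bound regions that lie in the interior of genes, away from gene ends, are described here. Of the 17234 regions in the authors' deposited table of peaks found in both WT1 replicates, 4360 lay on chromosomes 1 to 19 at an irreproducible discovery rate (IDR) of 0.05 or lower and are called reproducible. The table's value per region is read as the IDR, an estimate of the share of regions at least as strong that would not recur between replicates. Of these regions, 1908 (43.8%, exact Clopper-Pearson 95% interval 42.3 to 45.2) had their midpoint inside a protein-coding RefSeq gene of assembly GRCm38.p6 and more than 1 kb from every protein-coding gene end. They are called intragenic regions. Outside genes and away from ends lay 1604 reproducible regions (36.8%), and within 1 kb of a gene end lay 848 (19.4%). Members were chosen by their IDR, a measured value, and by gene positions, so their number and values are a description and were not tested. The highest IDR kept was 0.0499995 and the lowest left out in the same places was 0.0500368. The smallest distance to a gene end among the members was 1003 bp, and the largest among the 428 reproducible regions inside genes that lay too near an end was 991 bp.

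WT1 binding was mapped in microdissected kidneys of wildtype mouse embryos at E18.5, from a cross of C57Bl6 with B6DBA/F1, by sequencing DNA recovered with immunoprecipitated chromatin (ChIP-seq). The 2 WT1 samples, from experiments that the design text calls independent, were precipitated with the antibody WT1 (C-19) of Santa Cruz, and 2 IgG samples from the same kind of tissue were not analysed here. Per the labels, the recovered DNA was digested with AluI/MseI or with HaeIII/MseI before adapters were ligated, and the pair behind each sample is not stated there. Whole kidneys hold many cell types, so a region cannot be assigned to one of them, and the deposited lists hold no read counts, so the depth behind a region is unknown.

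WT1 is a zinc-finger transcription factor named for Wilms' tumour, a childhood kidney cancer. In the developing kidney it is made in nephron progenitors, which give rise to the nephron epithelium, and stays high in podocytes, the cells that wrap the glomerular capillaries and form the filter. Its zinc fingers bind GC-rich DNA, and the sequence GCGTGGGNG is a widely used description of its preferred site. Binding inside a gene can fall on an enhancer, on an alternative promoter or on neither, and it need not act on the gene that holds it.

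The reference used here holds DNA sequence only around annotated transcription starts, so sequence could be read for those intragenic regions that reach such a start inside a gene. These were 82 regions, which overlapped 94 promoter windows (250 bases before to 50 bases after a RefSeq start) of 85 genes, 62 of them protein-coding. Shown are the bases upstream of the start that lie inside the region, for the 6 lowest-IDR regions with all 250 of them covered, and for Robo2 and Magi2, kidney genes whose regions also held a start. All come from RefSeq, GRCm38.p6, and are written 5' to 3' on the gene's strand. Capitals mark GTGGGNG, a core contained in GCGTGGGNG, and GCGTGGGNG itself, on either strand.
Clcn2, chr16:20716637-20716886, minus strand: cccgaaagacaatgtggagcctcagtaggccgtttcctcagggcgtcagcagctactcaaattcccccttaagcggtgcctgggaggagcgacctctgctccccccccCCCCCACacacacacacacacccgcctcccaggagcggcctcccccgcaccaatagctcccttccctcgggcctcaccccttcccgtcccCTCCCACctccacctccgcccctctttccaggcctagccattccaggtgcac
Pfkfb2, chr1:130716049-130716298, minus strand: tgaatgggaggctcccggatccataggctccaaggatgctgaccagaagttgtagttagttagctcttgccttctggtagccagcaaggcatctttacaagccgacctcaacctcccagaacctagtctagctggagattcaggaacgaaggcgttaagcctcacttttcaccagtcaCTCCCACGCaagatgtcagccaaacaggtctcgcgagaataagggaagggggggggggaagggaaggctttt
Sall2, chr14:52316324-52316573, minus strand: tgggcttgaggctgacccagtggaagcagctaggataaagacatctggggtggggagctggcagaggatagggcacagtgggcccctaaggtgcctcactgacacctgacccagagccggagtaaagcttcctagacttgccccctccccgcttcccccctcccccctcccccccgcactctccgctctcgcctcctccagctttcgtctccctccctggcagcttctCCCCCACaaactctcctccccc
Mrtfb, chr16:13358171-13358420, plus strand: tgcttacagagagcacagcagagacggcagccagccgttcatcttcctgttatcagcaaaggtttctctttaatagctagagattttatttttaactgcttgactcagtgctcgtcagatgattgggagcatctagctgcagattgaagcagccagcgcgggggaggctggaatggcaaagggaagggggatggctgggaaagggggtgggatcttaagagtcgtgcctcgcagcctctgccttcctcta
Tgif1, chr17:70851735-70851984, minus strand: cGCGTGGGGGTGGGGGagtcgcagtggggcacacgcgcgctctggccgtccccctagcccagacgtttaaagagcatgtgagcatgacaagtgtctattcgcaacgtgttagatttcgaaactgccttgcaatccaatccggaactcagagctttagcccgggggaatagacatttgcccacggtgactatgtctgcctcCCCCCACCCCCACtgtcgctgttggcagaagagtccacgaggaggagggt
Faap20, chr4:155249716-155249965, plus strand: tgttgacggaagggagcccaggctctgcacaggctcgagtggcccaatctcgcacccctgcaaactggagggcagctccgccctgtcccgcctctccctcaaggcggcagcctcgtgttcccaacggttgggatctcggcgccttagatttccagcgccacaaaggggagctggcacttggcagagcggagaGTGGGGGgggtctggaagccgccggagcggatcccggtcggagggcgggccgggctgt
Robo2, chr16:74411826-74411968, minus strand: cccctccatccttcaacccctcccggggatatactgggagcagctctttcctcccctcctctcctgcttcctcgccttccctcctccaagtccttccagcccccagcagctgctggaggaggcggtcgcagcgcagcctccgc
Magi2, chr5:19226950-19227045, plus strand: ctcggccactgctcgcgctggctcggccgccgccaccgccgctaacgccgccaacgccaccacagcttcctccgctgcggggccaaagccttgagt

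Of the 8 stretches shown, Pfkfb2 and Tgif1 held GCGTGGGNG. Pfkfb2 encodes an enzyme that sets the level of a regulator of glycolysis, and Tgif1 a homeobox repressor of TGF-beta responses. The stretches of Clcn2, a chloride channel, Sall2, a zinc-finger transcription factor, and Faap20, a subunit of the Fanconi anaemia core complex, held only the core. Those of Mrtfb, a coactivator of serum response factor, Robo2, a receptor for SLIT proteins, and Magi2, a scaffold of the podocyte slit diaphragm, held neither. In Magi2 the window as a whole did hold GCGTGGGNG, outside the bases shown.

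Over all windows that intragenic regions overlapped, 11 of 94 (11.7%, 95% interval 5.99 to 20.0) held GCGTGGGNG on either strand. At starts inside genes that no intragenic region overlapped it was 111 of 6365 (1.74%), and among all 31396 windows of chromosomes 1 to 19 in the table, which has none on chromosome 18, it was 1.90%. Windows overlapped by reproducible regions at gene ends gave 13.0% (61 of 471), and those overlapped by intragenic regions of the overlap table above the IDR threshold gave 4.52% (7 of 155). Counting 1 window per gene left 9 of 85 (10.6%) against 1.60%. The shorter core GTGGGNG stood in 55.3% of overlapped windows, 31.6% of those not overlapped and 31.7% of all. A related GC-rich motif, GGGGGCG, stood in 21.3%, 13.3% and 16.6%. The overlapped windows were also richer in G and C, with a median of 59.2% against 52.0%. For GCGTGGGNG the shares in overlapped and not overlapped windows were 11.8% (2 of 17) and 0.307% under 50% GC, 9.38% (3 of 32) and 1.40% at 50% to 60%, 11.5% (3 of 26) and 3.68% at 60% to 70%, and 15.8% (3 of 19) and 7.20% above. For GTGGGNG they were 52.9% and 18.6%, 59.4% and 36.4%, 61.5% and 48.1%, and 42.1% and 45.3% in the same bands. For GGGGGCG the overlapped windows gave the lower share in all bands but the last, with 0% and 1.99%, 6.25% and 9.38%, 23.1% and 32.1%, and 63.2% and 55.1%, so its higher share over all windows was not seen within most bands. Matches were counted over the whole window, of which a region could cover as little as 1 bp. A match can thus lie outside the region: in a window with 191 bp covered, the covered bases held no GCGTGGGNG though the window did. The shares therefore describe windows that regions reach, not the regions themselves. A match is a description of letters in a window, and the windows cover 82 of the 1908 regions.

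The values of the intragenic regions differed in scale between the replicates. Each deposited peak list gives 1 value per peak, a p-value or q-value called the significance value here, and the smaller the value, the stronger the peak. Where a region overlapped several peaks of a replicate (226 regions in replicate 1 and 122 in replicate 2), the smallest value was taken. For the 1908 regions it ran from 0 to 0.0314 in replicate 1 (median 9.03e-07) and from 0 to 0.0156 in replicate 2 (median 4.37e-12). A value of 0 was listed for 1 region in replicate 1 and for 18 in replicate 2. Replicate 2 had the smaller value in 1704 regions and replicate 1 in 203. The median region ranked 2403 of 53132 peaks in replicate 1 and 2506 of 57641 in replicate 2, and the IDR chose the regions for such ranks. The median IDR of the intragenic regions was 0.00304, and 1258 of them stood at 0.01 or lower.

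**Figure D1:**
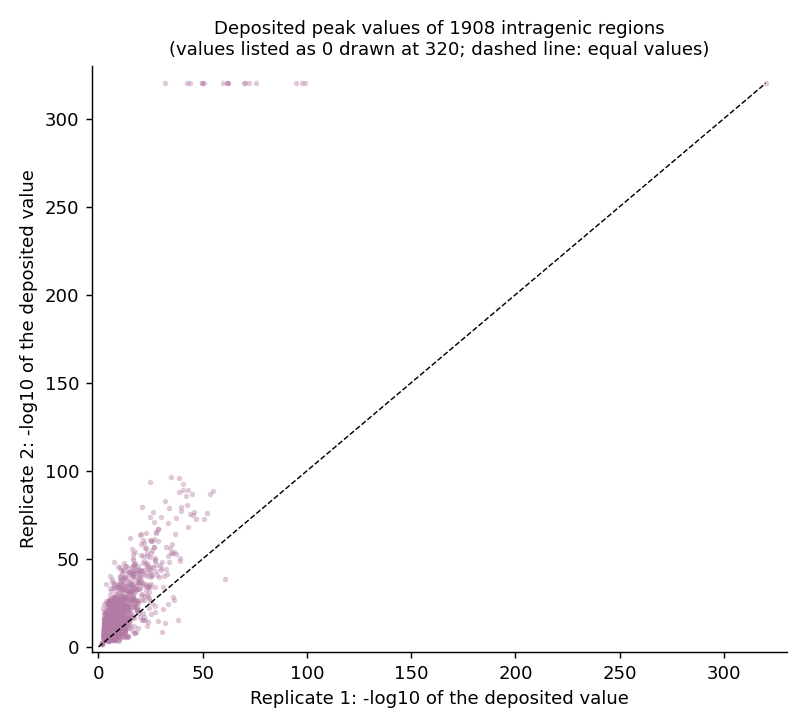
Significance value of each of the 1908 intragenic regions in replicate 1 (x axis) and replicate 2 (y axis), as -log10 of the deposited value, with values listed as 0 drawn at the top of the scale. Most points lie above the dashed line of equal values, since replicate 2 had the smaller value in 1704 regions.

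Width and strength are given beside those of the other reproducible regions, which passed the same IDR threshold, so likeness in strength is set in part by the selection. The median width of intragenic regions was 377 bp, beside 381 bp outside genes and 339 bp at gene ends. Their median significance value was 9.03e-07 in replicate 1, beside 3.16e-07 outside genes and 2.33e-06 at gene ends, and 4.37e-12 in replicate 2, beside 8.61e-13 and 3.8e-13. An IDR of 0.01 or lower was reached by 65.9%, 66.6% and 67.8% of the regions in these 3 places.

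The strongest intragenic region lay in Ksr2, whose product holds kinases of the ERK cascade together (chr5:117687419-117688469, IDR 6.63e-08). Its significance value was 9.36e-100 in replicate 1 and listed as 0 in replicate 2, and it lay 80.1 kb from the 3' end of a gene of 354 kb. Mical3, which encodes an oxidase that acts on actin filaments, followed with chr6:121110205-121110699, the 1 region listed at 0 in both replicates, 63.3 kb from the 5' end. The third lay in Clvs1, a lipid-binding protein of clathrin-coated vesicles (IDR 1.3e-07), and the fourth in Sema3g, a secreted semaphorin of podocytes and vessels (IDR 1.43e-07). Creb3l2, a membrane-bound transcription factor, held the next at 11.3 kb from its 5' end and 2 more. Others of the first 10 lay in Lin54, a subunit of the DREAM cell-cycle complex, Mlycd, malonyl-CoA decarboxylase, Hunk, a protein kinase, and Srgap1, a GTPase-activating protein downstream of SLIT and ROBO. For these 4 genes the value of the strongest region in replicate 1 ran from 2.7e-95 (Lin54) to 2.43e-62 (Mlycd), and all 4 were listed at 0 in replicate 2. The strongest regions of Srgap1 and Clvs1 lay 91.9 and 76.1 kb from an end.

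The 1908 regions lay in 1357 host genes, which is 7.4% of the 18328 genes on chromosomes 1 to 19 that have any base more than 1 kb from every gene end, called the interior below. The other genes of the 20665 on these chromosomes have no interior and could hold none. Of the regions, 25 lay in a pair of overlapping genes, which makes 1933 region and gene pairs. Most hosts, 993, held 1 region, 235 held 2, 89 held 3, 20 held 4 and 20 held 5 or more. The 364 hosts with at least 2 regions (26.8%) held 930 of the 1908 regions (48.7%).

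Host genes were long. Their median length was 97.3 kb (interquartile range 40.1 to 201), beside 21.5 kb (9.15 to 51.6) for all genes with an interior. A region was held by 1.1% of genes under 10 kb (55 of 5005), 3.35% of genes of 10 to 30 kb, 8.85% of 30 to 100 kb, 26% of 100 to 300 kb and 38.1% of genes over 300 kb (203 of 533). Among hosts, the share with 2 or more regions through the same classes was 9.09%, 11.2%, 18.8%, 33.5% and 49.3%. Across the 18328 genes the number of regions and the length had a Spearman correlation of 0.28, and across the 1357 hosts 0.30, both descriptions over genes, which are not independent replicates.

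Per base of interior the order was not that of length. The density was 3.44 regions per Mb in genes under 10 kb (exact Poisson 95% interval 2.63 to 4.42), 2.33 (2.04 to 2.65) in genes of 10 to 30 kb, 2.08 (1.91 to 2.27) in those of 30 to 100 kb, 2.48 (2.30 to 2.67) in those of 100 to 300 kb and 1.35 (1.22 to 1.48) in those over 300 kb. The longest class held the lowest density, with an interval below those of the other classes: it had 31.6% of the interior and 21.1% of the region and gene pairs. The highest value rests on 61 pairs in short genes, whose interior lies near a gene end throughout. From the strongest peaks of replicate 1 alone it was 2.48 per Mb, below the 2.51 of the class of 100 to 300 kb, and from those of replicate 2 alone it was 3.38.

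**Figure D2:**
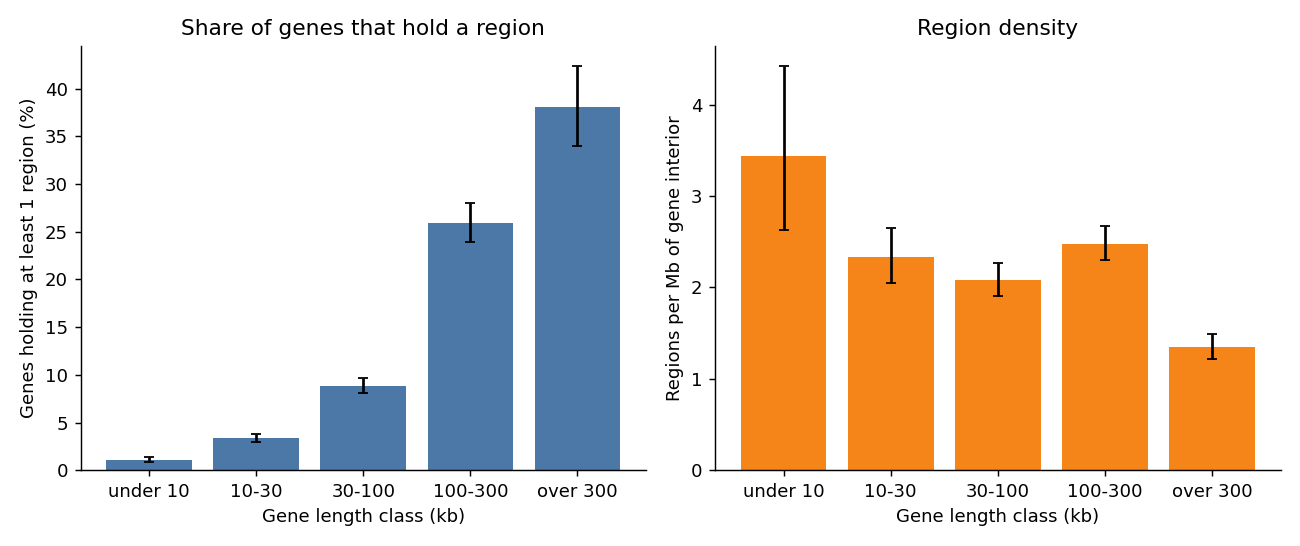
Left, percent of genes that hold at least 1 intragenic region by gene length class, with exact 95% intervals. Right, intragenic regions per Mb of gene interior in the same classes, with exact Poisson 95% intervals. The share of hosts runs from 1.1% to 38.1%, while the density is lowest, at 1.35 per Mb, in genes over 300 kb.

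The gene with most intragenic regions was Maml3, a coactivator of Notch target genes, with 11 in 418 kb (chr3:51687320-52105319). They ran from 2.68 kb to 333 kb from its 5' end. The strongest of them, chr3:52102290-52102988, lay nearest to the 5' end (IDR 1.01e-06) and had significance values of 9.65e-48 and 2.37e-73 in replicates 1 and 2. The second lay 189 kb inside (chr3:51915794-51916788), with 2.74e-34 and 7.47e-71. The weakest by IDR, 13.8 kb from the 5' end, had 0.00225 and 3.42e-11. Both the strongest and the weakest by IDR thus lay near the 5' end. In replicate 2 the region 333 kb inside had a larger value, 5.21e-07. The overlap table held 13 more regions in Maml3 above the IDR threshold. Msi2, an RNA-binding protein of stem cells, held 9 in 379 kb. Of these, 5 lay between 246 and 261 kb from the 5' end, the strongest of them at chr11:88471696-88472412 with 1.72e-21 and 6.7e-44.

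Auts2, a gene of neuronal development, Zbtb7c, a zinc-finger transcription factor, and Wwox, an oxidoreductase, held 8 each. Their lengths were 1106, 328 and 913 kb, so Zbtb7c reached 24.5 regions per Mb of interior and Auts2 7.25. Nav2, Tenm4, Gse1 and Tanc1 held 6 each, and Ksr2 5. The strength of the best region differed among these genes: it stood at IDR 5.01e-07 in Auts2 and at 0.00142 in Tanc1 and 0.000621 in Wwox.

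Some short genes were dense. Sost, which encodes the Wnt antagonist sclerostin, held 3 regions in 4.56 kb, at 1.10, 1.67 and 2.21 kb from its 5' end. Their significance values in replicates 1 and 2 were 2.44e-11 and 9.05e-30, 0.00606 and 6.07e-23, and 1.32e-07 and 9.53e-19. Each midpoint lay less than 1 kb from the next. Among genes with at least 3 regions, Midn, Spaca6, Tns2 and Gpr146 were the next in density, each with 3 regions in 12.4 to 18.7 kb. Short genes with 1 region can exceed them, as Pim3 did with 820 per Mb of interior against 289.5 in Midn. Tns2 encodes a tensin of focal adhesions, and its regions lay 2.57, 5.04 and 5.69 kb from the 5' end.

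**Figure D3:**
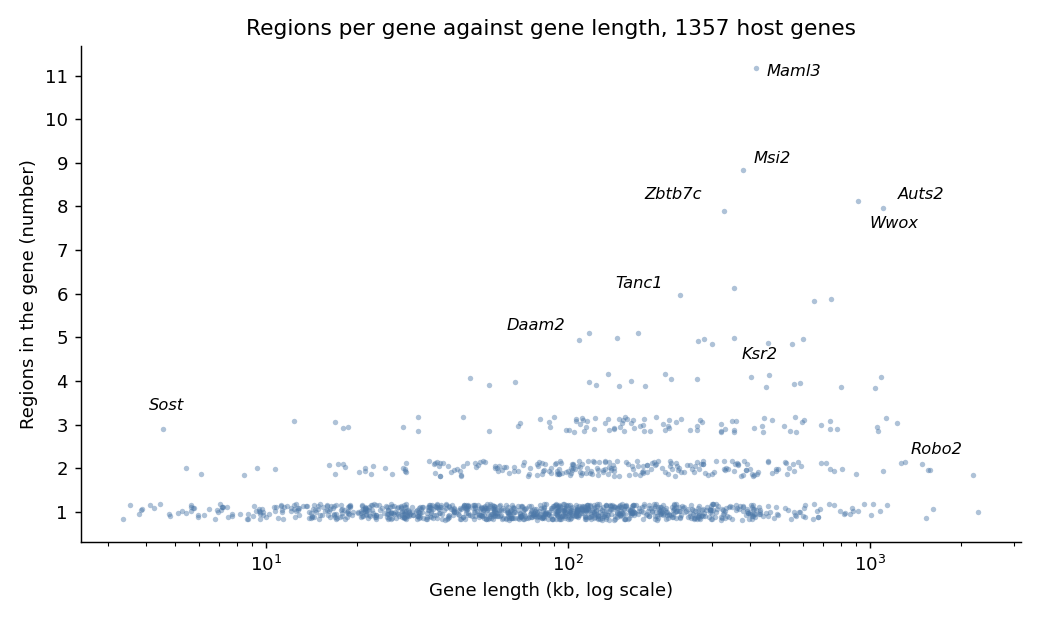
Number of intragenic regions in each of the 1357 host genes (y axis, points spread slightly around whole numbers) against gene length in kb (x axis, log scale). Maml3 stands alone at 11 regions, and the 993 genes with 1 region span the whole range of length.

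Where a host held several regions, the gaps between neighbours varied widely. No even placement was made for the gaps, so whether neighbours lay closer than it would give was not tested. Over the 364 hosts with at least 2, the 576 gaps between neighbouring midpoints had a median of 20.5 kb (interquartile range 3.17 to 68.3). Of these gaps 96 were under 1 kb and 214 (37.2%) under 10 kb. With neighbours less than 1 kb apart merged, 1813 regions remained, and 23.2% of hosts held 2 or more, in place of 26.8%.

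Within the gene, regions leaned to the 5' end. The strand was known for 1050 hosts (77.38%) through their annotated starts, which gave 1492 region and gene pairs. None of the 48 hosts on chromosome 18 could be oriented. Each share below stands beside the share that an even placement over the interiors of the same genes would give, in which the stretch within 1 kb of gene ends counts for nothing. In the first 10% of the gene lay 202 pairs (13.5%, 95% interval 11.8 to 15.4), beside 8.43% for even placement. In the last 10% lay 98 (6.57%, 5.36 to 7.95), beside 8.42%. Before the midpoint of the gene lay 55.1% (52.5 to 57.6), beside 49.95%.

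In distance from the end, 14.5% of the pairs lay within 5 kb of the 5' end (even placement 8.83%) and 6.77% within 5 kb of the 3' end (8.88%). Within 50 kb the shares were 54.9% and 49.3%, beside 51.6% and 51.5%. The lean to the 5' side differed with gene length. The share before the midpoint was 70.8% (34 of 48) in genes under 10 kb, 66.1% in those of 10 to 30 kb, 55.7% in those of 30 to 100 kb, 52.8% in those of 100 to 300 kb and 49.0% in those over 300 kb. In the last class the first 10% of the gene still held 15.2%, beside 9.83% for even placement. Regions sat deep as well: the median distance to the nearest end of any gene was 21.4 kb (6.35 to 56.7), and the deepest, in Robo2, was 623 kb.

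**Figure D4:**
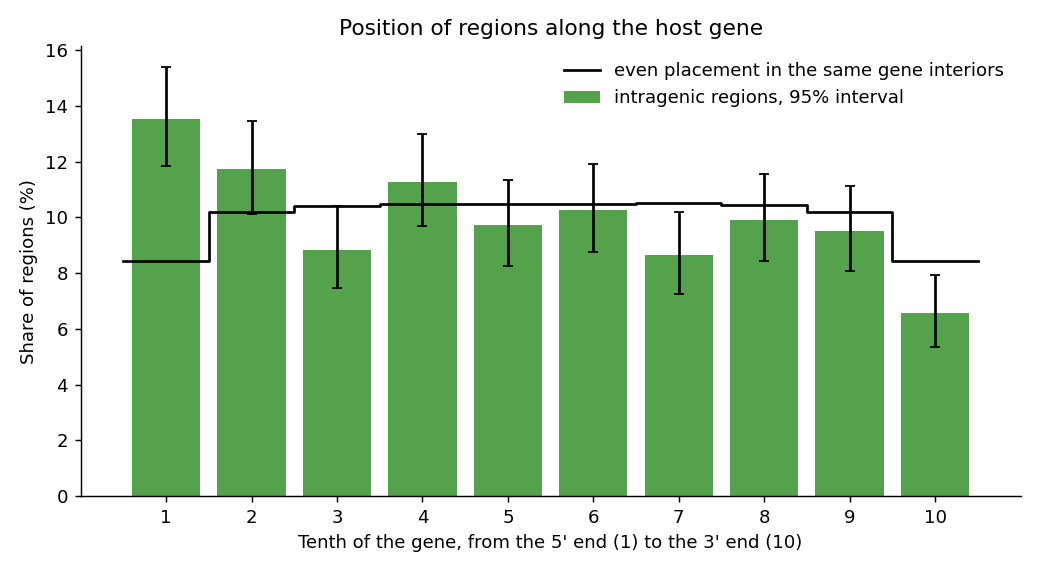
Percent of the 1492 oriented region and gene pairs in each of 10 equal parts of the gene from the 5' end (1) to the 3' end (10), with exact 95% intervals. The black line is even placement over the same gene interiors. The first bar stands at 13.5%, above its line at 8.43%, and the last at 6.57%, below 8.42%.

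Starts of transcripts inside the gene lay close to some of these regions. Of the 1830 regions on chromosomes that the start table covers, 102 (5.57%, 4.57 to 6.73) had their midpoint within 500 bp of an annotated RefSeq start of any gene, beside 0.644% of interior bases, a ratio of 8.65. Within 250 bp it was 62 regions (3.39%) and a ratio of 10.3. The start table gave a strand for 1050 of the 1357 hosts, and only 48 of the others lay on chromosome 18. Starts may thus be missing from it on the other chromosomes too. For starts of protein-coding genes alone 79 regions (4.32%) lay within 500 bp, a ratio of 11.3. Ends of lncRNA genes had 77 of the 1908 regions within 1 kb (4.04%), beside 1.31% of interior bases. With all regions within 1 kb of an annotated start left out, 1349 pairs remained. Their share in the first 10% of the gene was 11.6% (even placement 8.55%), and before the midpoint 52.9% (50.2 to 55.6, even placement 49.96%), closer to even placement than with them. The bases near starts stayed in the even placement, which therefore does not match these pairs, so no conclusion is drawn from the shift.

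A precursor microRNA lay wholly inside 1 region: Mir1895, in the region chr3:134240218-134240937 of Cxxc4, a CXXC-type inhibitor of Wnt signalling (IDR 1.07e-06, significance values 6.65e-40 and 1.79e-49). Mir3067 lay 31 bp from a region in Smoc1.

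Since fragments were cut with AluI or HaeIII and with MseI, region edges were compared with their cut sites where sequence was at hand. Of 72 edges of intragenic regions that fell in promoter windows, 7 (9.72%, 4.00 to 19.01) lay at an AluI (AGCT) or MseI (TTAA) cut, beside 0.849% of all window positions. For all regions of the overlap table the share was 16.0%, and for the peaks of replicates 1 and 2 it was 29.4% and 22.4%. At HaeIII (GGCC) cuts lay 0 of the 72 edges (upper limit 4.99%), 0.526% of the peak edges of replicate 1 and 1.05% of those of replicate 2, beside 0.617% of window positions. Promoter windows that intragenic regions overlapped held AGCT in 93.6%, beside 80.4% of windows at starts inside genes not overlapped. For GGCC the shares were 87.2% and 72.3%, and for TTAA 44.7% and 53.4%. The part of cut sites in the motif shares, widths and midpoints of regions was not tested.

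What the host genes do was described through gene lists and symbol families. For each, the share of its genes with an interior that held a region is set beside 7.4% for all genes and beside the share that genes of the same length classes had. The lists share genes, and they were chosen with earlier results of these data known, so the counts are no independent evidence of a theme.

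Podocyte genes held regions in 14 of 50 cases (28.0%, 16.2 to 42.5), where their length classes gave 14.1%. The strongest after Sema3g was in Nphs1, the gene of the slit diaphragm protein nephrin: chr7:30478056-30478820, with significance values of 1.55e-28 and 3.66e-66, 20.2 kb from the 5' end of a gene of 30.4 kb. Lmx1b, a transcription factor of podocytes, held 2, 8.60 and 34.9 kb from its 5' end, with 4.78e-12 and 1.56e-24 in the stronger and 3.55e-05 and 3e-11 in the other. Synpo, which encodes the actin-binding synaptopodin, also held 2, with 3.65e-11 and 2.46e-40 in the stronger. Ptpro, a receptor phosphatase of foot processes, held 1 (3.58e-16 and 1.33e-32). The 2 regions of Magi2 were weak, with 0.000121 and 5.23e-05 in 1 and 0.000281 and 4.07e-07 in the other, and lay 6.19 and 7.69 kb from the 5' end of a gene of 1485 kb. Arhgap28, a GTPase-activating protein, held the most of the list, 4. Tjp1, Myo1e, Sulf1, Actn4, Clic5, Bmp7 and Myh9 were its other hosts. Thsd7a, with 438 kb, held no intragenic region on either side of the IDR threshold.

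**Figure D5:**
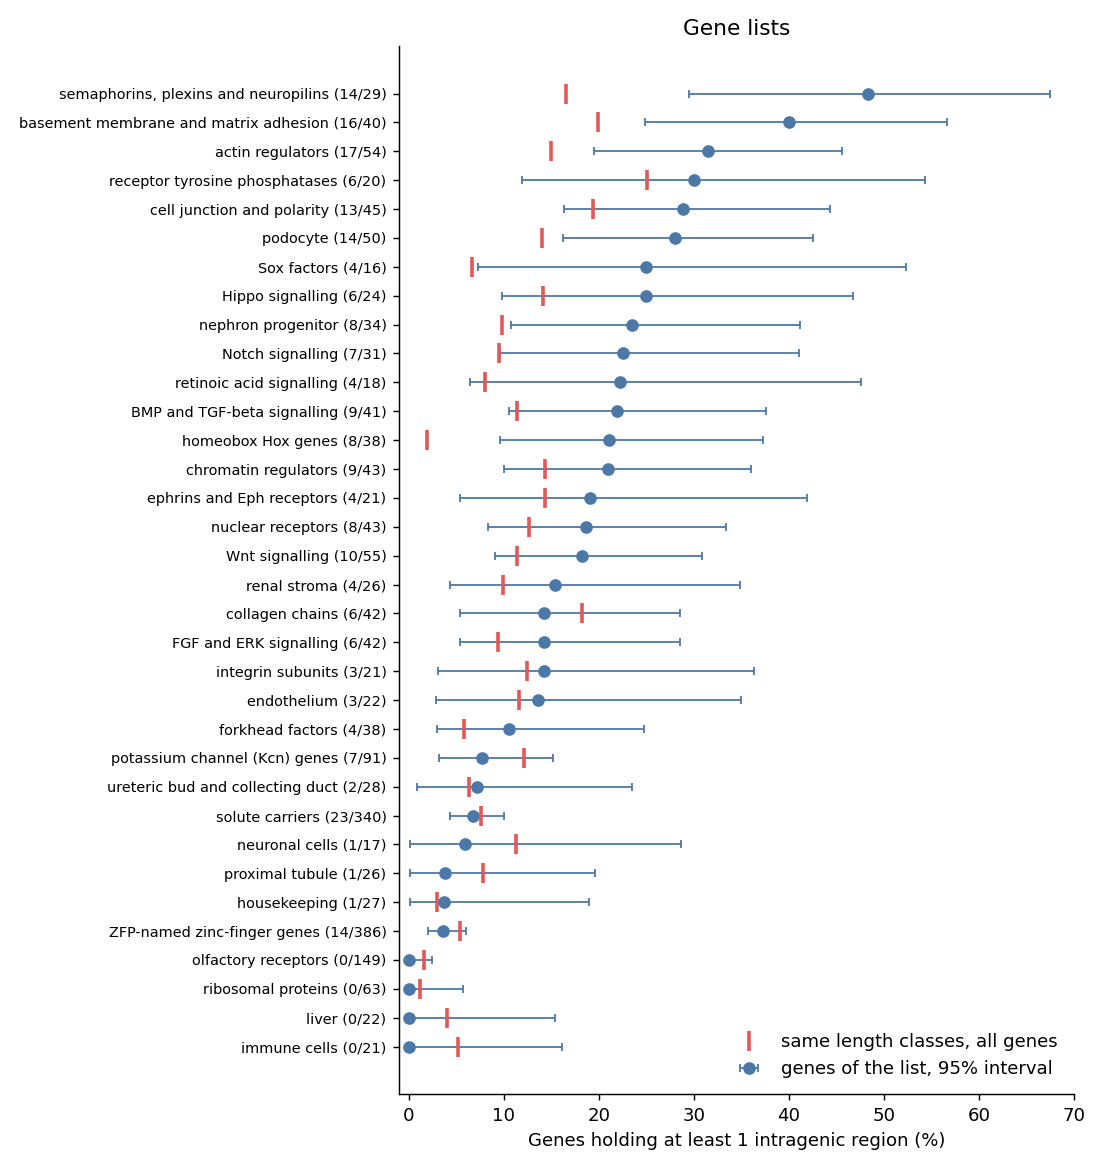
Percent of the genes of each list that hold at least 1 intragenic region (points, with exact 95% intervals and hosts over genes with an interior in brackets), and the percent for all genes of the same length classes (red marks). Semaphorins, plexins and neuropilins stand highest at 48.3%, and the points of olfactory receptors, ribosomal proteins, liver and immune genes stand at 0.

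Nephron progenitor genes held regions in 8 of 34 cases (23.5%, 10.7 to 41.2), beside 9.80% for their length classes. Dpf3, a subunit of a chromatin remodelling complex, held 3, the strongest 20.8 kb from its 5' end with significance values of 1.7e-39 and 2.01e-88. Rspo1, a Wnt agonist, held 1, 3.45 kb from its 5' end (1.02e-25 and 8.52e-61). Robo2 held 2 in 1555 kb. The one at 623 kb from its nearest end had 3.63e-29 and 1.53e-15, and the other, on the internal start shown above, 2.84e-06 and 6.02e-24. Pax2, a transcription factor of nephron formation, held 1 near either end, 1.38 kb from the 5' end (0.000172 and 5.94e-07) and 3.84 kb from the 3' end (7.6e-07 and 3.39e-10). Pax8, its relative, held 1 with 0.000394 and 1.15e-12. Bmper, a BMP-binding protein, held 1 with 2.15e-12 and 3.4e-07. Hoxd11 and Ncam1 held 1 each. At an IDR of 0.01 or lower the share of the list was 14.7%, and for all genes 5.34%.

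Lists of other kidney cell types and of other tissues gave lower shares at an IDR of 0.05, with wide intervals that overlap those of the podocyte and progenitor lists. Ureteric bud and collecting duct genes held regions in 2 of 28 cases (7.14%), proximal tubule genes in 1 of 26 (3.85%), renal stroma genes in 4 of 26 (15.4%) and endothelial genes in 3 of 22 (13.6%). The length classes of these lists gave 6.38%, 7.77%, 9.88% and 11.6%, in each case within the interval of the list. These shares rest on few genes and moved with the settings. Renal stroma ran from 3.85%, when peaks of both replicates had to cover 50% of a region, to 26.9% at an IDR of 0.1, and the ureteric list from 3.57% at an IDR of 0.01 to 10.7% at 0.1 and without replicate 1, where the strongest peaks of replicate 2 alone stood for the regions. The endothelial share was 9.09% at an IDR of 0.01 and without replicate 1, and the proximal tubule share 7.69% without replicate 2. The proximal tubule gene was Cubn, an endocytic receptor, with 3 regions, and the collecting duct list had Gfra1, the GDNF co-receptor, with 2, and Elf5. Immune cell genes held none (0 of 21, upper limit 16.1%, length classes 5.22%), nor did liver genes (0 of 22, upper limit 15.4%, length classes 4.06%). Of the neuronal genes 1 of 17 held a region, Rbfox3 (5.88%, 0.149 to 28.7, length classes 11.2%, and 11.8% without replicate 1). Of the housekeeping genes 1 of 27 held a region (3.70%), Ywhaz, with 0% at an IDR of 0.01 or without replicate 2, 7.41% without replicate 1 and 7.69% at more than 5 kb from gene ends.

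Signalling genes came from several pathways. Of Notch genes 7 of 31 held a region (22.6%, 9.59 to 41.1, length classes 9.45%): the receptor gene Notch1, the ligand gene Jag1, the glycosyltransferase gene Lfng, the coactivator genes Maml3 and Maml2, the effector Heyl and the ubiquitin ligase gene Dtx4. Of their 17 regions 11 lay in Maml3, and at an IDR of 0.01 the share was 12.9%. The region of Heyl, chr4:123238796-123240406, was 1611 bp wide and had 2.97e-25 and 2.43e-94. In Notch1 the region lay 14.7 kb from the 5' end (4.77e-09 and 2.09e-14).

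Of BMP and TGF-beta genes 9 of 41 held a region (22.0%, 10.6 to 37.6, length classes 11.4%). They included the ligand genes Bmp4, Bmp6 and Bmp7, the receptor genes Acvr2a and Tgfbr3, the binding proteins Ltbp1 and Bmper, and the signal transducers Smad3 and Smad6. Smad3 held 3 regions between 41.8 and 60.9 kb from its 5' end, the strongest with 9.98e-10 and 2.28e-26. Wnt genes gave 10 of 55 (18.2%, 9.08 to 30.9, length classes 11.4%, and 10.9% at an IDR of 0.01). The formin genes Daam2 and Daam1 had 5 and 3, and Axin2 and Ctnnb1, a negative regulator and the transducer of the pathway, 1 each. FGF and ERK genes gave 6 of 42 (14.3%, 5.43 to 28.5, length classes 9.43%). Besides Ksr2 these were Flrt1 and Flrt2, membrane proteins that bind FGF receptors, with 2 each, Rasal2, Fgf1 and Gab1. The stronger region of Flrt2 lay 3.06 kb from the 5' end, with 5.16e-10 and 3.62e-25. For the BMP and TGF-beta, Wnt, and FGF and ERK lists the intervals included the shares of their length classes.

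Retinoic acid genes gave 4 of 18 (22.2%, 6.41 to 47.6, length classes 8.05%) with 11 regions. The receptor gene Rara held 4 in 47.1 kb. The strongest pair of these, 39.0 and 31.7 kb from the 5' end, had 5.09e-24 and 1.77e-48, and 1.11e-43 and 1.48e-68. Its partner Rxra held 3, the strongest with 2.94e-19 and 5.68e-43 and the weakest, at 0.0314 and 0.00867, the region with the largest value in replicate 1 of all 1908. Rarg held 2, and Stra6, a receptor that takes up retinol, 2. Hippo genes gave 6 of 24 (25%, 9.77 to 46.7, length classes 14.1%): Fat4, Lats2, Nf2, Vgll4, Tead1 and Stk3. The Hippo share was 12.5% at an IDR of 0.01 and 37.5% at 0.1. The intervals given for the retinoic acid and Hippo lists included the shares of their length classes.

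Lists of guidance cues, matrix and cytoskeleton varied. Of semaphorins, plexins and neuropilins 14 of 29 held a region (48.3%, 29.4 to 67.5, length classes 16.5%), of them 9 semaphorin genes, 4 plexin genes and Nrp2. Plxna4 held 3, the strongest with 3.13e-28 and 3.45e-65. Sema4b had 2.76e-27 and 1.89e-71, and the 1097 bp region of Plxnb1, 3.25 kb from its 5' end, 8.79e-33 and a listed 0. Basement membrane and matrix adhesion genes gave 16 of 40 (40.0%, 24.9 to 56.7, length classes 19.9%). Col4a1 and Col4a2, the collagen IV chains that share a promoter region, held 1 and 2, at opposite ends: 4.91 kb from the 3' end of Col4a1 and 14.6 and 15.4 kb from the 5' end of Col4a2. The laminin genes Lamc1, Lamb1 and Lama4 and the Fraser complex genes Fras1 and Frem2 were also hosts, as were the sulfatase genes Sulf1 and Sulf2. All collagen chain genes together gave 6 of 42 (14.3%, 5.43 to 28.5), under the 18.3% of their length classes, which the interval included. Ephrins and Eph receptors gave 4 of 21 (19.05%, 5.45 to 41.9, length classes 14.4%, and 9.52% at an IDR of 0.01). Integrin subunits gave 3 of 21 (14.3%, 3.05 to 36.3, length classes 12.4%, and 23.8% without replicate 2). The intervals of both lists included the shares of their length classes. Per Mb of interior, ephrins and Eph receptors held 1.31 regions and integrin subunits 2.41, beside 2.02 over all genes.

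Actin regulators gave 17 of 54 (31.5%, 19.5 to 45.6, length classes 14.9%), with 5 regions in Daam2, 4 in Coro2b and 3 each in Arpc2, Daam1 and Fmnl2. Cell junction and polarity genes gave 13 of 45 (28.9%, 16.4 to 44.3, length classes 19.3%), among them Tjp1, Magi1, Afdn, Pard6b and Prkcz. Pard3, the central polarity scaffold, held none in 549 kb, but 9 regions above the IDR threshold. Receptor tyrosine phosphatases gave 6 of 20 (30%, 11.9 to 54.3, length classes 25%). For the junction and phosphatase lists the intervals included the shares of their length classes. Per Mb of interior, actin regulators held 5.52 regions, cell junction and polarity genes 1.62 and receptor tyrosine phosphatases 1.15. All genes held 2.02 and genes over 300 kb 1.35.

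Among transcription factor families, Hox genes gave 8 of 38 (21.1%, 9.55 to 37.3), where their short length classes gave 1.89%. At an IDR of 0.01 the share was 10.5%. Their gene models overlap in the clusters: Hoxd3 and Hoxd4 were both counted through chr2:74727744-74728241. The strongest was in Hoxc6 (6.64e-22 and 2.04e-48). Nuclear receptors gave 8 of 43 (18.6%, 8.39 to 33.4, length classes 12.7%). Sox genes gave 4 of 16 (25%, 7.27 to 52.4, length classes 6.69%), namely Sox4, Sox5, Sox6 and Sox12. Forkhead genes gave 4 of 38 (10.5%, 2.94 to 24.8, length classes 5.80%), with 5 regions in Foxp1. More than 5 kb from gene ends, where short genes have no interior, the Sox share was 50% and the forkhead share 25%. Genes with a Zfp symbol gave 14 of 386 (3.63%, 2.00 to 6.01, length classes 5.44%, and 2.16% at more than 5 kb from ends). Chromatin regulators gave 9 of 43 (20.9%, length classes 14.3%, and 32.6% at an IDR of 0.1).

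Ion channel and transporter families gave shares below those of their length classes, though the intervals included them. Genes with a Kcn symbol, most of them potassium channel subunits, gave 7 of 91 (7.69%, 3.15 to 15.2, length classes 12.1%) and solute carriers 23 of 340 (6.76%, length classes 7.60%, and 3.53% at an IDR of 0.01). Olfactory receptors held none (0 of 149, upper limit 2.45%, length classes 1.58%), nor did ribosomal protein genes (0 of 63, upper limit 5.69%, length classes 1.13%). Both intervals included the low shares of these short length classes. The longest genes with no intragenic region were Cntnap2, Lrp1b, Macrod2, Dlg2 and Csmd1, of 1643 to 2241 kb, of which Macrod2 held 5 regions above the IDR threshold, Dlg2 2, Cntnap2 1 and the other two none. Cntnap2 and Dlg2 encode proteins of axons and synapses.

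Hosts were also compared with other genes for regions that the rule did not use. A reproducible region within 1 kb of a gene end was found at 113 of the 1357 hosts (8.33%, 6.91 to 9.93) and at 4.48% of the 16971 other genes with an interior. Within length classes the shares were 10.9% and 4.04% under 10 kb, 11.7% and 4.12% at 10 to 30 kb, 7.87% and 4.83% at 30 to 100 kb, 8.01% and 6.53% at 100 to 300 kb and 5.91% and 4.55% over 300 kb. Intragenic regions above the IDR threshold were found in 60.1% of hosts and 13.7% of other genes, and within the class of 30 to 100 kb in 53.2% and 20.2%.

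Across chromosomes the density of intragenic regions ran from 1.39 per Mb of interior on chromosome 12 (1.05 to 1.81) to 2.90 on chromosome 11 (2.46 to 3.40), around 2.02 over all 942.8 Mb. The intervals of these 2 chromosomes did not overlap, but the 2 were picked as the extremes, so this is no test of a difference. The intervals cover counting error only.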

How the data were processed

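Peak lists of the 2 WT1 samples and the table of regions found in both were used as deposited. The build is mm10, per the submitters' processing notes. The aligner, peak caller and IDR settings were not given in the sources used here. Both deposited lists of peaks carry 1 p-value or q-value per peak (the labels do not say which), and the deposited overlap table carries 1 fraction per region, read as the IDR. The IgG samples, exons and a genome sequence were not used here, so the planned exon and intron positions and the motif comparison at region middles were not made; promoter windows took their place.

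Members are regions with an IDR of at most 0.05 on chromosomes 1 to 19, placed by their midpoint more than 1 kb from gene ends, against a RefSeq gene table of GRCm38.p6, which mm10 represents. Strand came from the RefSeq promoter table. Named genes were the hosts of the 10 lowest-IDR regions, the 10 genes with most regions, the 5 densest with at least 3, up to 4 hosts per list by lowest IDR, 20 listed genes, the 5 longest genes without a region and the 5 shortest hosts; other hosts are named only as members of a list, as hosts of a sequence shown or of a microRNA, chosen after their values were seen. Some of these genes and 1 list are not reported here. The members and lists were chosen with earlier results of these data known. No test was made: there is 1 group of 2 samples, and the values chose the members. Shares have exact Clopper-Pearson and densities exact Poisson 95% intervals, which cover counting error over regions or genes only, and depth is unknown. Counting functions were tested on simulated data. Python 3.11.15, pandas 2.3.3, numpy 2.4.6 and scipy 1.17.1 were used. Alternatives were other IDR thresholds, distances, overlap rules and each replicate alone.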

Additional observations from a re-analysis of the deposited data

How the results depend on the processing

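No paired analysis was possible because the IgG samples that share replicate numbers with the WT1 samples were not analysed here and no result comes from a test. With an IDR of at most 0.01, 1258 intragenic regions remained, 5.34% of genes held one and 21.5% of hosts held 2 or more. The densities from the shortest to the longest gene class were then 1.86, 1.66, 1.39, 1.64 and 0.851 per Mb. At 0.1 these shares were 8.85% and 29.4%, and the densities from 10 to 30 kb upward 2.92, 2.63, 3.04 and 1.71. Genes over 300 kb had the lowest density in both cases.

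More than 500 bp from gene ends, 47.6% of reproducible regions were intragenic, the density at 10 to 30 kb was 2.71, the median relative distance to the nearer end was 22.3% of gene length, 18.2% of pairs lay in the first 10% of the gene and 7.23% of regions within 500 bp of a start. More than 5 kb from ends these values were 34.7%, 28.1%, 7.004% and 3.87% (in the same order, without the density), with 8.04% of genes as hosts and 51.2% of pairs before the midpoint. No gene under 10 kb has an interior at 5 kb, so that class has no value, and the first 10% of the gene then loses most of its bases by construction. With peaks of both replicates covering 50% of the region, 7.01% of genes were hosts. With regions less than 1 kb apart merged, which was chosen after seeing the data, as were the results on the first 10% of the gene, the midpoint and annotated starts, 23.2% of hosts held 2 or more, and 44.2% of regions were intragenic when the others were merged alike. For the other changes the cause was not tested.

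From the strongest peaks of 1 replicate alone, as many as there are reproducible regions, the density was 2.48 to 3.38 per Mb under 10 kb, 2.18 to 2.71 at 10 to 30 kb and 1.20 to 1.45 over 300 kb. The share of regions inside genes was 43.9% to 44.0%, that in the first 10% of the gene 12.2% to 13.5% and that before the midpoint 53.9% to 55.6%. List shares that moved by over 1.5 times are given beside each list.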
